A study of Mus musculus with 3 samples.

Results

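Spliceosomal small nuclear RNAs (snRNAs) are described here in the chromatin fraction of mouse bone marrow-derived macrophages. The members were the genes annotated as snRNA with a mean of at least 10 expected counts over the 3 libraries, and 32 of the 1383 annotated snRNA genes, among 55536 genes in all, met this minimum. The members were thus chosen by their mean count, and their levels are a description. Macrophages of the C57BL/6J strain had received Lipid A, the membrane anchor of lipopolysaccharide and a TLR4 agonist, at 100 ng/ml for 25 min, and ribosome-depleted total RNA of their chromatin fraction was sequenced. The 3 libraries (replicates 1, 2 and 3) form this 1 group and no unstimulated control is analysed here. The labelled RNA amount was 1000 ng for replicate 1, 250 ng for replicate 2 and 500 ng for replicate 3. The 3 libraries carry the same donor label, and the labels do not give sex or age. Nothing says that the cells came from separate animals, so p-values cover at most the spread between these samples. The change with RNA amount fitted below leaves 1 residual degree of freedom, so this spread is estimated largely across genes.

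An snRNA is the RNA core of a spliceosome subunit, in which it pairs with the pre-mRNA or with another snRNA. U1 snRNA recognises the 5′ splice site, U2 snRNA pairs with the branch point, and U12 snRNA does the work of U2 on the rare minor class of introns. Splicing starts while the transcript is still on chromatin, so spliceosome subunits are found in this fraction. In the mouse these RNAs are made from many gene copies of identical or nearly identical sequence, and reads of such copies cannot be assigned to one gene.

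By sequence the 32 members fell into 4 classes with 18 distinct sequences. The U1 class held 18 genes with 8 sequences, each at least 90% identical to Rnu1a1 or Rnu1b1, and the U2 class held 11 genes with 7 sequences at least 90% identical to Rnu2-10. A pair of 141-nt genes, Gm24265 and Gm24407, is given no class by the annotation used here. No U4 snRNA sequence was among the references compared, so whether the pair belongs to that class was not tested. The last member was Rnu12, the U12 gene. In all, 20 members shared 6 sequences, and copies of one sequence carried equal counts in the tables (within 0.02 counts).

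Most members lay in clusters (assembly mm10, GENCODE M21). U1 genes formed a group of 7 on chromosome 3 (96328425 to 96488893), which includes Rnu1b1, Rnu1b2 and Rnu1b6, a group of 7 on chromosome 12 (54696782 to 54738622) and a pair on chromosome 11 (87422867 to 87426879). U2 genes formed a group of 4 on chromosome 1 (72226240 to 72255198) and a group of 5 on chromosome 11 (101604850 to 101658428). The 141-nt pair lay on chromosome 5 (115489459 to 115490394) and Rnu12 on chromosome 15 (83149644 to 83149794). Of the members, 8 lay inside a longer gene on the same strand. The host D230017M19Rik, a long noncoding RNA gene around 3 U2 members, had 21, 12 and 15.3 counts in replicates 1, 2 and 3, against 5550, 2218 and 3690 for Gm25939 inside it. For the U1 members Gm26244 and Gm24924 the host had far more counts than the member: Rock1, around Gm26244, had 4183, 3934 and 4415 counts, and Ss18, around Gm24924, had 633, 562 and 692.

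Of the U2 sequences, the 3 most abundant and a pair that was not called for change with RNA amount, Gm25360 and Gm26316, are shown, as GENCODE M21 transcripts in DNA letters, 5′ to 3′. In Rnu2-10 the capitals mark GTAGTA, which pairs with the branch point, and ATTTTTG, where the ring of Sm proteins binds. In the other lines the capitals mark the bases that differ, counted from 1 at the 5′ end: G109C from Rnu2-10 to Gm23472, T69C and C78T from Gm23472 to Gm25939, C78T, A95G and C154T from Gm23472 to Gm25360, and C170T from Rnu2-10 to Gm26316.
Rnu2-10: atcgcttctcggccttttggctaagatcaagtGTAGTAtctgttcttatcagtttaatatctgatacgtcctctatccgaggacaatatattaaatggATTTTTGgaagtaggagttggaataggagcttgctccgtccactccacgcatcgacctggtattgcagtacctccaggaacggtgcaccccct
Gm23472: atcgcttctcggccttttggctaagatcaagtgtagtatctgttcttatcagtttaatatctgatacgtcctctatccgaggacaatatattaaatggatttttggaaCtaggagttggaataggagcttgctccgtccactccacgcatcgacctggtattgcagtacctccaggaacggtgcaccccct
Gm25939: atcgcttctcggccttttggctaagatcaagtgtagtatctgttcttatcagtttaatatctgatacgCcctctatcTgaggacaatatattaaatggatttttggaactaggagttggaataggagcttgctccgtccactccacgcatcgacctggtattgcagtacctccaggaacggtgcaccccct
Gm25360: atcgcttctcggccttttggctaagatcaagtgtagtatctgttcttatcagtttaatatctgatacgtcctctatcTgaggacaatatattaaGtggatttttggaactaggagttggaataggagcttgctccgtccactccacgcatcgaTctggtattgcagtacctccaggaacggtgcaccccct
Gm26316: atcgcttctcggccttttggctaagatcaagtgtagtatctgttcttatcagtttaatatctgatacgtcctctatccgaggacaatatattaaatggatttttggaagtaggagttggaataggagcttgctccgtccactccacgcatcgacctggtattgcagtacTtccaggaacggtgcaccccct

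The U1 sequences are shown because a single base separates genes with very different counts. In Rnu1a1 and Rnu1b1 the capitals mark ACTTACC, which pairs with the 5′ splice site, and ATTTGTG, the Sm site. Capitals in the other lines mark T60C from Rnu1a1 to Gm22513 and T33C from Rnu1b1 to Gm25890.
Rnu1a1: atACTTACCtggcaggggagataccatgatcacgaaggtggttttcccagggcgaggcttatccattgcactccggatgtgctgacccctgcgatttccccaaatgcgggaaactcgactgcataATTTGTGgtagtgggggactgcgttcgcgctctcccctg
Gm22513: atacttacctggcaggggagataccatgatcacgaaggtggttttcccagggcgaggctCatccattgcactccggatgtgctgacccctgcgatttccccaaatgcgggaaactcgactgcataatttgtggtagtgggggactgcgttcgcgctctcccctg
Rnu1b1: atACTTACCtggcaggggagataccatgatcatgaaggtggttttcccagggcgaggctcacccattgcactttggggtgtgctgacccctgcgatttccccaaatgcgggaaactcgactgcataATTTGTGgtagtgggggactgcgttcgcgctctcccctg
Gm25890: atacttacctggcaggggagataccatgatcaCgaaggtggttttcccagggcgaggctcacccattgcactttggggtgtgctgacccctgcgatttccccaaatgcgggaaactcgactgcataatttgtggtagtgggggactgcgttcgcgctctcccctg

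The 141-nt pair and Rnu12 are shown as the members outside the U1 and U2 classes. Capitals mark ATTTTTG in Gm24265, G88A and C99A from Gm24265 to Gm24407, and in Rnu12 both GTAAGGA, which pairs with the minor-class branch point, and ATTTTTG.
Gm24265: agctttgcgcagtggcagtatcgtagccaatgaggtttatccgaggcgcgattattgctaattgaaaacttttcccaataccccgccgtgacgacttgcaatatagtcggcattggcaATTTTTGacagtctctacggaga
Gm24407: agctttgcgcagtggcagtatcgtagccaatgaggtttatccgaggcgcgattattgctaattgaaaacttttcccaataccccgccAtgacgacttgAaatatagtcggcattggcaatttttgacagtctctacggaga
Rnu12: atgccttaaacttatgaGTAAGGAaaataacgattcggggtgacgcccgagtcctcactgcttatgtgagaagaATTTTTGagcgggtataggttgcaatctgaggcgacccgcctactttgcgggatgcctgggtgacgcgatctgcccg

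The motifs were searched as letters on the RNA strand of the annotated transcripts. ACTTACC started at position 3 in all 18 U1 members and was present in 4.70% of all 1383 annotated snRNA transcripts. GTAGTA started at position 33 in all 11 U2 members and was present in 3.69% of all. ATTTTTG was present in every U2 member, both genes of the 141-nt pair and Rnu12, and in 3.33% of all, and ATTTGTG in every U1 member and 12.9% of all. A match describes letters only.

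U2 sequences were the most abundant, followed by U1, the 141-nt pair and Rnu12. Summed over the U2 class, the level was 2995, 804 and 1349 CPM (counts scaled to the library's gene counts) in replicates 1, 2 and 3. The U1 class had 1372, 226 and 248 CPM. The highest value of both classes was in replicate 1, and replicates 2 and 3 were close for U1 but not for U2. The 141-nt pair had 24.6, 36.2 and 26.0 CPM, highest in replicate 2, but 51.4, 50.6 and 46.1 CPM on the estimated counts of the second kind of table, where replicate 1 was highest. Rnu12 had 3.75, 1.88 and 1.62 CPM. U2 was above U1 in every library. The pair stood above Rnu12 in every library, but on the estimated counts Rnu12 was above the pair in replicate 1 (67.0 against 51.4 CPM).

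Together the members took 0.440%, 0.107% and 0.163% of gene counts in replicates 1, 2 and 3, a mean of 0.236% ± 0.178 (SD, n = 3). U2 held 75.5% ± 7.44 and U1 22.6% ± 8.05 of the members' counts (SD, n = 3). The share on U1 was 31.2%, 21.2% and 15.3% in replicates 1, 2 and 3, and that on U2 68.1%, 75.3% and 83.0%. The U1 share was highest in replicate 1 and the U2 share in replicate 3. In bulk samples fewer cells of a type and less RNA per cell cannot be told apart.

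In TPM as deposited, which divide counts by an effective length, the members took a mean of 12.1% ± 6.29 of a library (SD, n = 3), from 7.05% in replicate 2 to 19.1% in replicate 1, since the effective length of these short RNAs is small. At 191 nt it was 24.0, 16.5 and 17.0 nt in replicates 1, 2 and 3, and at 164 nt 11.2, 7.89 and 8.04 nt. On this scale U1 and U2 were nearly level in replicate 1, at 9.20% and 9.42% of all TPM, and U2 was higher in the others (3.83% against 2.24% and 6.67% against 2.58%).

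**Figure D1:**
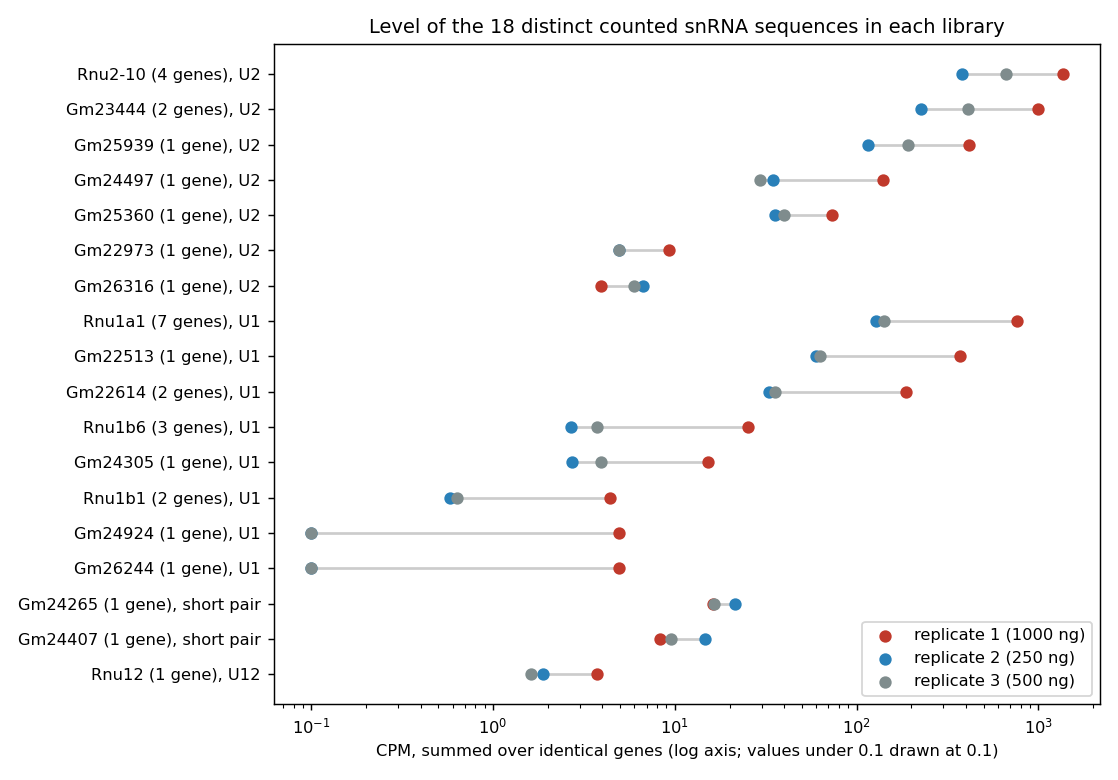
Level of each of the 18 distinct sequences in CPM (log axis), named by its first gene with the number of identical genes; each point is 1 library, the grey line spans the 3, and short pair means the 141-nt pair. Replicate 1 is the highest library for 15 of the 18 sequences, while Gm26316, Gm24265 and Gm24407 are highest in replicate 2. Among the 15, Gm24924, Gm26244 and the sequence of Rnu1b1 reached the minimum through replicate 1 alone, so their order was set by the rule.

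The U2 sequence of Rnu2-10, carried also by Gm23849, Gm23971 and Gm24950, was the most abundant at 1363, 381 and 665 CPM in replicates 1, 2 and 3. The sequence of Gm23472 and Gm23444 followed at 989, 225 and 411 CPM, and Gm25939 at 417, 116 and 193 CPM. These 3 sequences kept the same order of libraries, replicate 1 above 3 above 2. Gm24497, which differs from Gm23472 by C186A alone, had 140, 34.6 and 29.4 CPM. The split of reads between Gm24497 and the Gm23472 sequence was uncertain, and both levels depend on it. Gm25360 had 73.4, 35.7 and 39.9 CPM and Gm22973 9.31, 4.96 and 4.96 CPM, so replicates 2 and 3 were close for both. Gm26316 went the other way, with 3.94, 6.66 and 5.99 CPM.

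Among U1 genes, the Rnu1a1 sequence, carried also by Gm22068 on chromosome 11 and by Gm22317, Gm22634, Gm23804, Gm25679 and Gm26444 on chromosome 12, had 761, 127 and 142 CPM. Gm22513, a single gene that differs from it by T60C, had 369, 59.7 and 62.6 CPM. The sequence of Gm22614 and Gm25890 had 187, 33.1 and 35.6 CPM. These are members of the U1b cluster on chromosome 3, a U1 type known in the mouse mainly from embryonic tissues. The named U1b genes were low: Rnu1b6 and its copies Gm24830 and Gm26232 together had 25.4, 2.70 and 3.73 CPM, and Rnu1b1 with Rnu1b2 4.39, 0.578 and 0.636 CPM. Gm24305, which differs from Rnu1a1 by A26G, had 15.3, 2.72 and 3.94 CPM. In each U1 sequence named here replicate 1 stood far above replicates 2 and 3, but Rnu1b1 and Rnu1b2 reached the minimum through replicate 1 alone.

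Some shares of a variant within its class stayed close between libraries. The U1b cluster held 15.8%, 16.1% and 16.1% of U1 counts in replicates 1, 2 and 3, with a 95% Wilson interval of 15.3% to 16.4% in replicate 1, which covers counting error only. The Rnu1a1 sequence held 55.5%, 56.3% and 57.1% of U1 counts, and Gm22513 26.9%, 26.4% and 25.2%. The Rnu1a1 share depends on how reads are split with Gm24924 and Gm26244, each 99.4% identical to Rnu1a1. In replicate 1 these genes had 66.0 expected counts each but posterior means of 739 and 926, and the intervals do not cover this split. Among U2, Gm25939 held 13.9%, 14.4% and 14.3%. The intervals of the libraries overlapped for each of these 4 shares, although U1 as a whole was 6.07 times as high in replicate 1 as in replicate 2.

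Other U2 shares differed by more than counting error. U2 with C at position 109 (G109C) held 54.1%, 51.2% and 49.9% of U2 counts, with intervals of 53.6% to 54.5%, 50.4% to 52.0% and 49.3% to 50.5%. The Rnu2-10 sequence held 45.5%, 47.4% and 49.3%. Gm25360 held 2.45%, 4.44% and 2.96%, highest in replicate 2. Gm24265 held 66.4%, 59.5% and 63.2% of the counts of the 141-nt pair, with overlapping intervals.

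**Figure D2:**
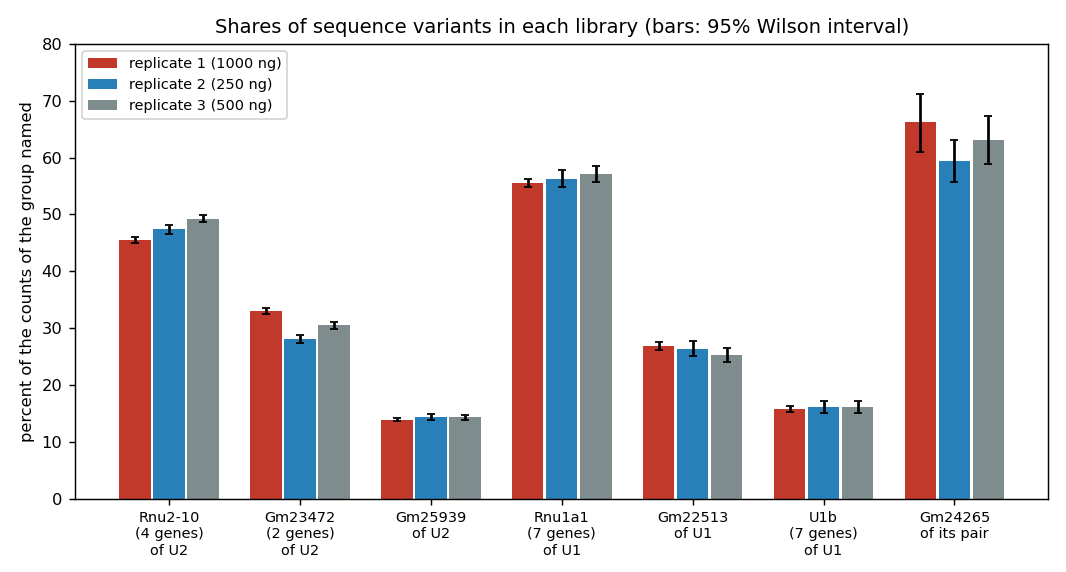
Percent of class counts on 7 sequences or groups of sequences in each library; bars are libraries and error bars 95% Wilson intervals (counting error only). The U1 shares and Gm25939 stay within overlapping intervals, while the Rnu2-10 share runs from 45.5% to 49.3%. The intervals leave out how reads are split between near-identical sequences, on which the Rnu1a1 and Gm23472 shares depend.

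How firmly a count belongs to one gene varied widely. For the 20 genes of shared sequence, the posterior standard deviation in the deposited tables was 23.4% to 129% of the expected count. Of the 12 members with a sequence of their own, 9 had one of at most 13.1% in every library. For Gm22513 it was under 1 count in each library, and for Gm25939 1.09, 1.00 and 1.16 counts. Gm24497 was less certain: its expected counts of 1869, 664 and 562 stood beside posterior means of 4837, 1421 and 2237. Gm23472 and Gm23444, from which it differs by C186A alone, each had 6583, 2159 and 3937 expected counts. Their posterior means were lower, at 4978, 1627 and 3667 for Gm23472 and 5221, 1933 and 2533 for Gm23444. Gm24924 and Gm26244 each had 66.0 counts in replicate 1 and at most 0.1 in the others, beside posterior means of 177 to 926, so they passed the minimum through replicate 1 alone and their levels are not determined.

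**Figure D3:**
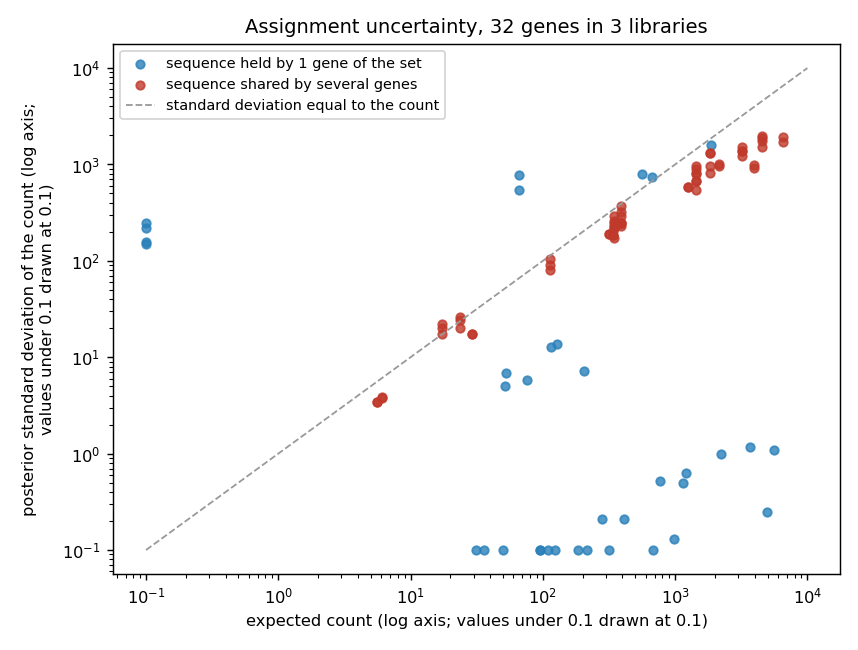
Posterior standard deviation against expected count (both log axes) for 32 genes in 3 libraries; the dashed line marks a deviation equal to the count. Genes of shared sequence lie near the line (23.4% to 129% of the count), and most genes with a sequence of their own lie far below it.

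The minimum left out the short snRNAs. Of the 1383 snRNA genes, 1083 (78.3%) had an effective length of 0 in every library, and the longest of these was 122 nt. In all, 1319 genes had 0 counts. Rnu5g (116 nt), a gene of the U5 snRNA that holds the exon ends together, Rnu6 (107 nt), of the catalytic U6 snRNA, and Rnu7 (62 nt), whose RNA serves histone mRNA end formation, are listed at 0 with an effective length of 0. Rnu11 (134 nt), of the minor-class counterpart of U1, is also listed at 0, with an effective length of 1.99 to 2.59 nt. These zeros do not show that the RNAs were absent. In the second kind of deposited table, with estimated counts under kallisto's column names, Rnu5g had 113, 41.2 and 79.6 counts. Rnu6, Rnu7 and Rnu11 had 0 estimated counts in every library there too. On the estimated counts, 154 snRNA genes reached a mean of 10. Of these, 31 were members, and 98 of the other 123 were at most 120 nt long.

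**Figure D4:**
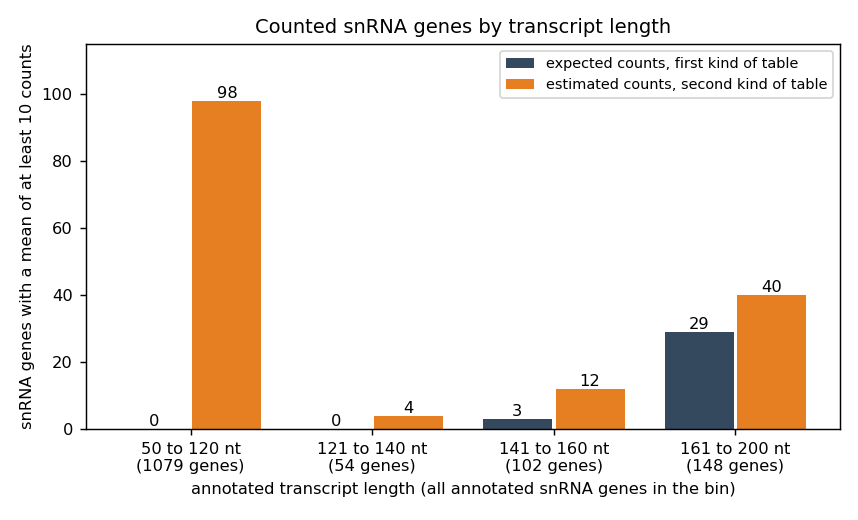
Number of snRNA genes with a mean of at least 10 counts by annotated length, in the gene tables (dark) and in the second kind of table (orange). Up to 140 nt the gene tables hold 0 such genes and the second kind 102.

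At the edge of the rule, the lowest members were Rnu1b1 and Rnu1b2 (mean 13.6 counts each), followed by Gm26244. Just below it were Gm24145 (6.33), Gm22214 (3.67) and Gm24041 (3.33). Some members differed widely between the kinds of table. Rnu12 had 50, 36 and 31 expected counts against 1383, 748 and 962 estimated counts. Gm24924 had 81.7, 126 and 147 estimated counts, and Gm26244 had practically none.

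The RNA amount is the only labelled difference between the libraries, and it cannot be told apart from the library itself. A change per doubling of RNA was fitted to all genes (edgeR quasi-likelihood test, Benjamini-Hochberg adjustment, 15077 genes tested). Over all genes 661 (4.38%) were called at an adjusted p under 0.05, of which 449 (2.98% of those tested) were higher with more RNA and 212 (1.41%) lower. Of the 28 members tested, 22 were called higher and 0 lower, which is 9 of 15 distinct sequences. Of these 28, 25 had a positive value, and their median was 1.03 log2 units per doubling beside -0.01 over all genes tested. Copies that share reads enter this median separately. With near-identical copies summed, the median over 6 features was 0.60, and 5 of the 6 were positive. In that fit 3 of the 6 were called higher, beside 443 of 15055 over all genes. DESeq2 called 0 members lower as well, and 8 higher, beside 96 lower and 270 higher of 15077 genes.

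All 14 tested U1 genes were called higher, by 1.13 to 1.61 log2 units per doubling. The Rnu1a1 sequence rose by 1.17 ± 0.18 (SE; edgeR adjusted p = 0.0013), Gm22513 by 1.19 ± 0.18 (edgeR adjusted p = 0.0013) and Rnu1b6 by 1.61 ± 0.28 (edgeR adjusted p = 0.0027). These values rest on replicate 1, since replicates 2 and 3 differed little: the U1 class in replicate 3 was 1.10 times that in replicate 2, but replicate 1 was 5.52 times replicate 3. Without replicate 1 the value of the Rnu1a1 sequence was 0.11 and that of Gm22513 0.02. With DESeq2 the standard errors were larger: the Rnu1a1 sequence had 1.17 ± 0.54 (DESeq2 adjusted p = 0.233) and Gm22513 1.19 ± 0.59 (DESeq2 adjusted p = 0.271). Among the 11 U1 genes to which DESeq2 gave an adjusted p only Gm24305 was called (DESeq2 adjusted p = 0.011). Rnu1b6 and its copies received none. The range of adjusted p over the settings run was 6.1e-12 to 0.233 for the Rnu1a1 sequence.

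Of the 11 U2 genes, 8 were called higher. The Gm23472 sequence rose by 0.93 ± 0.13 (SE; edgeR adjusted p = 0.00052), the Rnu2-10 sequence by 0.79 ± 0.13 (edgeR adjusted p = 0.0016) and Gm25939 by 0.79 ± 0.13 (edgeR adjusted p = 0.0015). The U2 class followed the order of the RNA amounts, with replicate 3 at 1.68 times replicate 2 and replicate 1 at 2.22 times replicate 3, and these 7 genes were also called by DESeq2. Without replicate 1 their values were 0.82, 0.75 and 0.68 in the order given above. Gm24497 rose by 0.88 ± 0.19 (edgeR adjusted p = 0.010), but without replicate 1 its value was -0.29, and DESeq2 did not call it (adjusted p = 0.462). Its value depends on how reads are split with the Gm23472 sequence. On the estimated counts of the second kind of table it was 0.56 ± 0.13 (edgeR adjusted p = 0.042). These counts were 1663, 964 and 1285 in replicates 1, 2 and 3. Gm25360 (0.39 ± 0.14, edgeR adjusted p = 0.117), Gm22973 (0.32 ± 0.20, edgeR adjusted p = 0.365) and Gm26316 (-0.49 ± 0.22, edgeR adjusted p = 0.193) were not called. Whether U1 and U2 differ in this change was not tested.

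The 141-nt pair and Rnu12 were not called. Gm24265 had -0.33 ± 0.15 and Gm24407 -0.55 ± 0.18 log2 units per doubling (edgeR adjusted p = 0.221 and 0.085). Rnu12 had 0.38 ± 0.26 (edgeR adjusted p = 0.435), and 0.61 ± 0.13 on the estimated counts of the second kind of table (edgeR adjusted p = 0.034). Rnu1b1, Rnu1b2, Gm24924 and Gm26244 did not pass the count filter and were not tested.

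**Figure D5:**
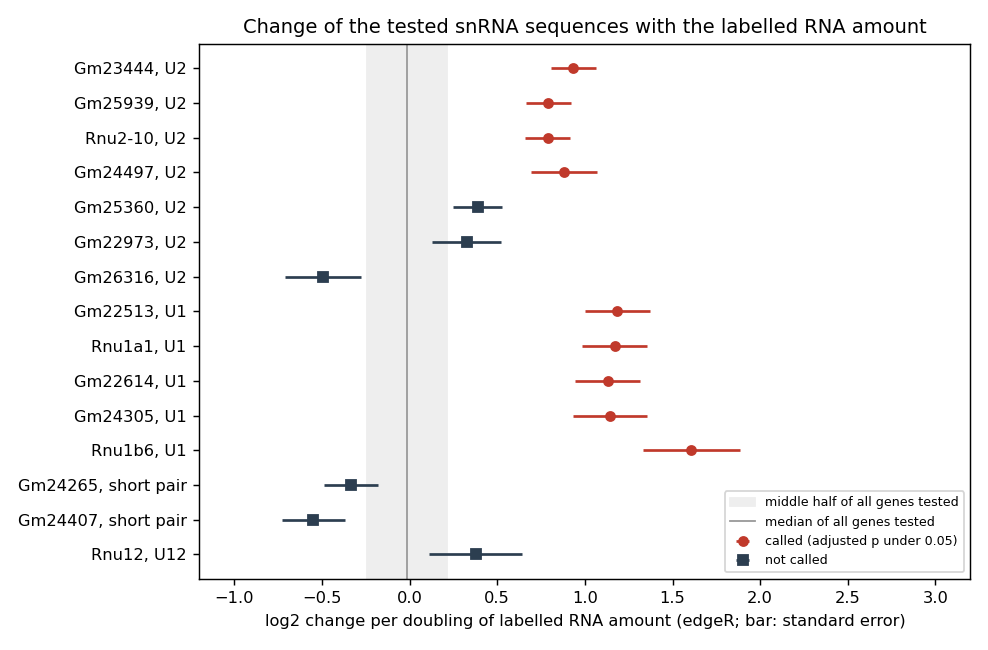
Log2 change per doubling of labelled RNA amount (edgeR) for the 15 tested sequences, each named by 1 gene, with standard errors; the grey band holds the middle 50% of all 15077 genes (-0.24 to 0.21). The 5 U1 and 4 of the 7 U2 sequences are called and lie to the right of the band.

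Several library measures stood apart in replicate 1, together with the snRNA level. Gene counts were 13318787, 19162053 and 19147923 in replicates 1, 2 and 3. Spike-in entries took 1.53%, 0.357% and 0.308% of counts, and genes of the ribosomal DNA locus 8.59%, 27.2% and 23.2%. The effective length at 191 nt was 1.45 times as long in replicate 1 as in replicate 2, and on the deposited TPM the U1 class was 4.10 times and the U2 class 2.46 times as high in replicate 1 as in replicate 2, against 6.07 and 3.73 times in CPM. Without the ribosomal DNA locus genes the fit again called 22 members higher, with a median of 1.03. In that fit 470 of 14822 genes were called higher. Dropping these genes cannot separate their share from the library itself. The part of ribosomal DNA share, spike-in share and fragment length in the result was not tested. The labels give a size range of 250 to 400, with no unit, and the longest members are 191 nt. The median log2 ratio of replicate 1 to the mean of the others was also taken for other small nuclear RNA types at the same minimum. It was 0.08 over 61 snoRNA genes, 0.16 over 9 scaRNA genes and 2.44 over the 32 members. The members include Gm24924, Gm26244, Rnu1b1 and Rnu1b2, which reached the minimum through replicate 1 alone, so their excess there was set by the rule. Copies of one sequence also enter this median separately, 7 times for the Rnu1a1 sequence.

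Genes of spliceosome proteins and of snRNA synthesis and assembly were taken from 9 lists. Of 108 such genes 102 were tested, and 1 was called higher and 1 lower, beside 4.38% called over all genes. Of the 102 values 79 were negative, and their median was -0.21 log2 units per doubling, beside -0.01 over all genes tested. Without replicate 1 the median of the 102 was -0.08, without replicate 2 -0.33 and without replicate 3 -0.20. Both called genes belong to Integrator, the complex that cuts snRNA transcripts at the 3′ end. Ints12 rose by 0.65 ± 0.15 (SE; edgeR adjusted p = 0.020) and Ints1 fell by 0.59 ± 0.15 (edgeR adjusted p = 0.034). Ints12 had 21.4, 8.02 and 11.9 TPM over genes of at least 300 nt in replicates 1, 2 and 3, and Ints1 39.5, 51.5 and 56.5 TPM. Of 15 Integrator list genes, the other 13 were not called.

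Levels of these genes, in the same TPM, spanned a wide range (mean ± SD, n = 3). Among U1 proteins Snrnp70, which binds U1 directly, had 489 ± 67.4 TPM, Snrpa 24.7 ± 3.85 and Snrpc 5.50 ± 0.701. Among U2 proteins the branch point factor Sf3b1 had 585 ± 138 TPM, Sf3b2 78.5 ± 11.2 and Sf3b5 0.133 ± 0.124. Of the U5 and tri-snRNP list, Sart1 had 65.2 ± 16.5, Ddx23 65.0 ± 13.7 and Txnl4a 1.83 ± 1.03 TPM. The Sm core genes, whose proteins form the ring on the Sm site, were low: Snrpd1 had 10.5 ± 2.07, Snrpb 8.37 ± 2.58 and Snrpf 0.645 ± 0.306 TPM. The LSm genes, whose proteins bind U6, ran from Lsm8 (7.22 ± 2.11) and Lsm4 (6.79 ± 2.70) to Lsm3 (4.15 ± 1.20 TPM).

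Of the minor spliceosome list, Zrsr2, which recognises the 3′ splice site, had 111 ± 28.3 TPM, Zcrb1 78.2 ± 13.6 and Snrnp25 1.46 ± 0.755. Of the genes that transcribe snRNA genes, Snapc4 had 73.0 ± 10.9, Snapc3 69.9 ± 10.4 and Snapc2 1.11 ± 0.354 TPM. The Integrator list was led by Nabp1 (308 ± 65.9) and Ints6 (147 ± 51.7), with Ints5 lowest (1.38 ± 0.143 TPM). Of the assembly and modification list, Ssb had 54.2 ± 5.88, the cap methylase Tgs1 45.2 ± 13.5 and Gemin6 0.233 ± 0.0423 TPM.

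The macrophage label was checked against its markers. All 6 macrophage markers were above 40 mean TPM, from Itgam at 42.8 ± 5.17 to Ptprc at 704 ± 350 TPM (SD, n = 3). Of 6 markers of other cells, Cd3e, Pax5 and Hbb-bt were at 0 counts in all 3 libraries, and Kdr was the highest at 5.23 ± 1.83 TPM.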

How the data were processed

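The authors deposited, per library, a gene table with expected counts, TPM and the posterior mean and standard deviation of the count (RSEM's column names, per the file headers) and a second transcript table of estimated counts (kallisto's column names, per the file headers). Both refer to mm10 and GENCODE M21, per the deposited readme files. No aligner, version or strand setting is given in the sources used here. Without strand, reads of a gene and an overlapping gene on the opposite strand cannot be told apart. Of the 10 members that overlap another gene, 8 lie on the same strand as that gene, where strand would not separate the reads.

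CPM were taken over 55536 genes, without 97 spike-in and 26248 tRNA entries, and TPM of protein genes were recomputed over genes of at least 300 nt. Transcripts were grouped with edlib 1.3.9.post1 at 90% identity, and copies within 4 edits were summed as an alternative. Expected counts were rounded and fitted with edgeR 4.0.16 in R 4.3.3 (filterByExpr, TMM factors 1.12, 0.930 and 0.962, quasi-likelihood test on log2 RNA amount, 1 residual degree of freedom), with standard errors computed as the absolute change over the square root of F. The design did not say whether filterByExpr is given the design matrix. It was run with it first, and that fit is reported. The filter without it was run after those results were seen and is an added alternative. DESeq2 1.42.0 was another. The fit was tested on simulated data. Intervals are 95% Wilson intervals. Python 3.11.15 was used.

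Named members were the 20 highest, all called, the 3 largest and smallest ratios between libraries, those next to the minimum and 1 per class. Of the protein lists they were the 2 highest and the lowest of each and the called genes. Members and lists were chosen with earlier results of these data known.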

Additional observations from a re-analysis of the deposited data

How the results depend on the processing

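Members called higher numbered 22 of 28 with RLE size factors and without the ribosomal DNA locus genes. They were 22 of 29 on the kallisto-type counts and 26 of 32 without a count filter. The 4 more calls there (Gm24924, Gm26244, Rnu1b1 and Rnu1b2) are on genes that reached the minimum through replicate 1 alone and support nothing. With near-identical copies summed, 3 of 6 features were called, beside 662 of 15055 in all, with a median of 0.60 log2 units per doubling. DESeq2 called 8 of the 24 members to which it gave an adjusted p, where copies of one sequence count separately. Without replicate 1 the median was 0.11, and without replicate 2 it was 1.88, with the U1 values resting on replicate 1, while the 7 genes of the 3 most abundant U2 sequences had 0.68 to 0.82 without it. Such pairs of libraries allow no test. On the expected counts Gm24497 ranged from -0.29 without replicate 1 to 2.04 without replicate 2. The filter without the design matrix, chosen after seeing the data, tested 14108 genes and called 1101 (665 higher, 436 lower) in place of 661, again with 22 members. DESeq2 called 366 of 15077 genes in all, 270 higher and 96 lower, and the fit on kallisto-type counts 487 of 24300. With RLE size factors 698 of 15077 were called, and without the ribosomal DNA locus genes 691 of 14822. Without a filter 1181 of 24386 were called. Spliceosome protein genes called numbered 5 with no filter, 1 on the kallisto-type counts and 4 with the filter without the design matrix, in place of 2. The snRNA share of counts was 0.135% to 0.301% on leaving out a replicate, and 12.1% of deposited TPM. On the kallisto-type counts 154 genes reached the minimum, the 141-nt pair held 3.64% of the members' counts and Rnu12 2.30%, in place of 1.85% and 0.120%. The cause of these differences was not tested. Without replicate 1 the minimum left 28 genes. No paired analysis was possible because the libraries form 1 group. Depth allows 3 counts to stand for 0.225, 0.157 and 0.157 CPM in replicates 1, 2 and 3.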
